A study of Rattus norvegicus with 12 samples.

Results

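The EGR and AP-1 immediate early factors followed here are the transcription factor genes Egr1, Egr2, Egr3, Fos, Fosb, Fosl1, Fosl2, Jun, Junb and Atf3. They were taken by symbol from the platform's probe annotation, with the probe of highest mean kept where a gene had more than 1. Of the 10 symbols, 9 had a probe with that symbol alone, out of 18166 named genes on the array; Fosl2 had none and is not analysed here. Primary wild-type rat cardiomyocytes, grown in DMEM/F12 with FBS and horse serum, were either left as controls or exposed to SIN-1 for 70 min, 4 h or 8 h. SIN-1 (3-morpholinosydnonimine) decomposes to nitric oxide and superoxide, which combine to peroxynitrite. Each of the 4 groups held 3 arrays, called biological triplicates in the design text, and the same 3 controls served every treated time. The labels used here give no SIN-1 dose, strain, animal age, vehicle, culture time of the controls or last change of serum. Effects of SIN-1 and of time in culture or serum change therefore cannot be told apart here. The earliest treated arrays were those at 70 min, so changes before that time were not measured.

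Immediate early genes are transcribed within minutes of a stimulus because their activators are already in place and need only be modified. Serum, growth factors and stress reach Fos and the EGR genes chiefly through MAP kinases that act on serum response factor and its ternary complex partners at CArG boxes, and through CREB-type factors at cAMP response elements (CREs). EGR proteins bind GC-rich DNA through zinc fingers, while FOS and JUN proteins pair through leucine zippers to form AP-1. In the heart these factors are known for their early response to stretch, hypertrophic agonists and ischaemia.

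The promoters show which of these elements each gene carries close to its start. RefSeq windows of 300 bases, from 250 before to 50 after a transcript start, were at hand for 6 of the 10 genes: Egr1, Egr2, Fosb, Fosl1, Fosl2 and Junb. The windows of the following 4 are printed because their genes took different courses under SIN-1. Capitals mark CArG boxes and the 5-base CRE core, TGACG on either strand.
Egr1, GRCr8 chr18:26736828-26737127, plus strand: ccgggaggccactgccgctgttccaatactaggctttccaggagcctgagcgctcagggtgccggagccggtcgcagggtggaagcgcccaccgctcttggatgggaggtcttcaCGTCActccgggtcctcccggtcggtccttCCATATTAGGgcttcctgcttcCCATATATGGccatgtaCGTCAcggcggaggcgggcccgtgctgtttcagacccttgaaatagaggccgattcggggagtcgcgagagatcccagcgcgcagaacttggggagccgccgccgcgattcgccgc
Egr2, GRCr8 chr20:21054392-21054691, minus strand: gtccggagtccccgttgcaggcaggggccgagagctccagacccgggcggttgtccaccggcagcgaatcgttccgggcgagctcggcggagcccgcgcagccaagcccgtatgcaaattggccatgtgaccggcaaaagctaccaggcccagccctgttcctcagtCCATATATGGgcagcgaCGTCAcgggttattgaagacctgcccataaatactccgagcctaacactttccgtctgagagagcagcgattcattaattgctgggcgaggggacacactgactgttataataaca
Fosl1, GRCr8 chr1:212183635-212183934, plus strand: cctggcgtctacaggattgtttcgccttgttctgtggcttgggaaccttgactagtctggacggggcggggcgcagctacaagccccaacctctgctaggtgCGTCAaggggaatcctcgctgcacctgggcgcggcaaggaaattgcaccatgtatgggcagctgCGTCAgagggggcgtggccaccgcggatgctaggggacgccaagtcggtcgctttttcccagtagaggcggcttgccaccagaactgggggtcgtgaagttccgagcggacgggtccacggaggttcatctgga
Junb, GRCr8 chr19:40080876-40081175, plus strand: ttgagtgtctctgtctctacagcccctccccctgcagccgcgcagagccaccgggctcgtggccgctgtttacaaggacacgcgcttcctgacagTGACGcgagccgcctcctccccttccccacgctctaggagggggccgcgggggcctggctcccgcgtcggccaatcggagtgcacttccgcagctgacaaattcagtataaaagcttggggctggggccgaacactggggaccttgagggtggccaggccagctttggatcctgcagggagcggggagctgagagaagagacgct

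Egr1 held 2 CArG boxes, at -105 to -96 and -83 to -74 from the transcript start, and 2 CRE cores, at -135 to -131 and -66 to -62. Egr2 held 1 CArG box and 1 CRE core at the same distances, -83 to -74 and -66 to -62. Fosl1 had no CArG box but 2 CRE cores, at -148 to -144 and -84 to -80, and Junb had 1 core, at -155 to -151. Among all 33469 promoter windows of this length, 1.64% held a CArG box, 21.2% a CRE core and 0.272% both. The other motifs searched on both strands were the full CRE (TGACGTCA, which contains the core; 1.83% of windows), the AP-1 site (TGANTCA; 7.33%) and the EGR site (GCGNGGGCG; 4.98%). None of these 3 occurred in the 4 printed windows, the Fosb window matched no motif searched, and that of Fosl2 matched the EGR site at 2 places. For Egr2 and Fosb the RefSeq start used is not the outermost start of the gene. A match describes letters in these windows and shows no binding.

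**Figure D1:**
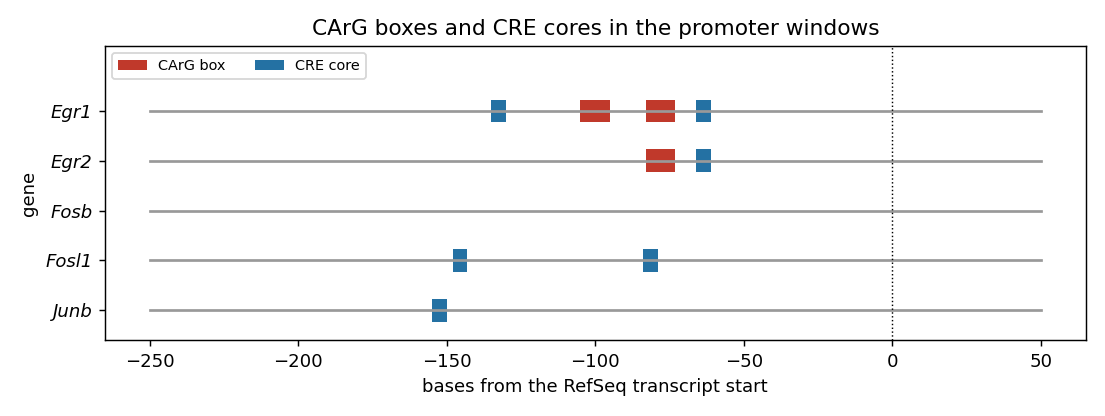
Positions of CArG boxes (red) and CRE cores (blue) along the promoter windows of the measured genes with a RefSeq promoter, in bases from the transcript start (dotted line). Egr1 and Egr2 share a CArG box at -83 to -74 and a CRE core at -66 to -62, and the Fosl1, Junb and Fosb windows hold no CArG box.

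Values are log2 expression after RMA, on which a difference of 1 is a doubling. Correlations between arrays of a group ran from 0.9906 to 0.995 across genes. The arrays of 70 min replicates 2 and 3 and of 4 h replicate 3 stood apart by their median over all probes (5.09 to 5.12, against 4.98 to 5.05 in the other arrays). Values without these 3 arrays are given beside the results below; this leaves a single array at 70 min, taken to vary like the other groups. The cardiomyocyte label had weak backing from defining markers. The 11 measured of 12 cardiomyocyte markers averaged 5.19 to 5.33 across control arrays (5.12 to 5.45 at 70 min, 5.08 to 5.22 at 4 h and 5.07 to 5.25 at 8 h). In the control group Myh6 stood at 3.99 and Myh7 at 3.64, and 4 of the 11 reached the median level of named genes, 5.75. Those 4 were Pln at 8.16, Tnnc1 at 7.22, Tnnt2 at 5.99 and Nkx2-5 at 5.92. The 10 fibroblast markers averaged 9.04 to 9.07 in control arrays and 8.67 to 8.80 at 70 min. They averaged 8.87 to 8.99 at 4 h and 9.02 to 9.16 at 8 h. In controls they ran from Tcf21 at 4.75 to Col1a1 at 12.75, and 9 of the 10 reached 5.75. Pdgfra stood at 5.77, Dcn at 6.17 and Thy1 at 6.28. Summed on the linear scale per array, the cardiomyocyte markers came to 692.7 to 748.7 in controls, 691.7 to 750 at 70 min, 596.5 to 624.2 at 4 h and 607.1 to 688.6 at 8 h. The fibroblast sums were 21270 to 21770, 19050 to 20020, 20360 to 20910 and 21180 to 21980. Of the 10 fibroblast markers, 4 fell at 70 min, 1 at 4 h and 0 at 8 h (limma), where 7.81%, 1.77% and 0.0055% of all genes were lower. Among the other markers, 1 cardiomyocyte marker fell at 4 h, 1 endothelial marker at 70 min and 1 smooth muscle marker at 4 h, and 1 smooth muscle marker rose at 70 min. Smooth muscle and pericyte markers (6 of 8 measured) averaged 7.66 to 7.87 over all arrays, endothelial markers (7 of 9) 4.43 to 4.69 and macrophage and leukocyte markers (9 of 9) 4.20 to 4.43. Of the smooth muscle and pericyte markers in controls, Tagln stood at 12.4, Pdgfrb at 10.38 and Cspg4 at 7.24. Rgs5 stood at 5.87, Myh11 at 5.59 and Des at 5.19. Probe levels of different genes are not shares of cells, and the part of other cell types in the results below was not tested. In such bulk RNA, fewer cells of a type and less RNA per cell cannot be told apart.

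The first question was which of these factors differed from control after 70 min of SIN-1. Egr1 and Fos fell and Fosl1 rose, and the other 6 genes did not pass the test (limma, Benjamini-Hochberg adjusted p under 0.05 over all genes). The 1 of 9 higher stands beside 6.76% of all 18166 genes called higher, and the 2 of 9 lower beside 7.81% called lower. Over the 9 genes the median log2 fold change was 0.13, against 0.03 over all genes.

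Egr1, the zinc finger factor that drives growth and stress genes, read 8.39, 8.36 and 8.36 in the control arrays and 6.91, 6.96 and 7.11 after 70 min. The groups lay far apart, with no treated array above 7.11 and no control below 8.36. The fall was 2.60-fold (log2 fold change -1.38 ± 0.09, SE, n = 3; 95% interval -1.57 to -1.18; limma adjusted p = 3.45e-08). It was -1.46 without the 3 arrays of high median (limma adjusted p = 2.06e-05), and it passed in all 24 alternatives.

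Fos, the founding AP-1 subunit and partner of the JUN proteins, read 6.34, 6.46 and 6.39 in controls and 5.84, 5.81 and 5.74 at 70 min. All treated arrays were again below all controls. The difference was -0.60 ± 0.15 (SE), or 1.52-fold lower (limma adjusted p = 0.0125). Its call ended without the 3 arrays of high median (-0.56, limma adjusted p = 0.116), and narrowly without control replicate 2 or 70 min replicate 3 (-0.57 each, 0.0513 and 0.0504).

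Fosl1 encodes FRA1, an AP-1 subunit that lacks the activation domain of FOS and is linked to migration and proliferation. It went the other way, from 6.34, 6.18 and 6.08 in controls to 6.8, 6.95 and 7.05. The treated arrays were all higher than the controls. The rise was 1.67-fold (0.74 ± 0.12, SE; limma adjusted p = 0.000286). Without the 3 arrays of high median it was 0.61 (limma adjusted p = 0.0467).

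Egr3 and Junb also had no overlap between groups at 70 min, but neither passed. Egr3, a relative of Egr1 known from muscle spindles and lymphocytes, read 5.46, 5.47 and 5.46 in controls and 5.77, 5.98 and 5.77 at 70 min (0.37 ± 0.13, SE; 95% interval 0.10 to 0.65; limma adjusted p = 0.0642). It passed in 3 of 23 alternatives, with array weights, after a further quantile normalization and without 4 h replicate 2 (adjusted p from 0.0409 to 0.0487). Junb, an AP-1 subunit that often restrains JUN, read 6.65, 6.64 and 6.77 in controls and 6.85, 7.20 and 6.86 at 70 min (0.29 ± 0.14, SE; interval -0.01 to 0.58; limma adjusted p = 0.193). Including these, 5 of the 9 genes had groups that did not overlap at 70 min, beside 31.8% of all genes. For the other comparisons this share was not taken.

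Jun, Fosb, Egr2 and Atf3 overlapped their controls at 70 min. Jun, the principal partner of FOS, averaged 8.87 ± 0.12 in controls and 9 ± 0.1 at 70 min (SD, n = 3), a difference of 0.13 with a 95% interval of -0.06 to 0.31. Its other probe gave 0.25 ± 0.15 (SE), also not passing. Fosb, a FOS relative of lasting responses, differed by 0.20 (interval -0.15 to 0.54). Egr2, known from myelination, stood at -0.01 (interval -0.32 to 0.29). Atf3, a stress-induced factor of the ATF/CREB family that pairs with JUN proteins, stood at -0.03 (interval -0.31 to 0.24). Egr2, Egr3 and Fosb had mean levels of 5.05, 5.56 and 5.60, below the median of 5.75 over named genes.

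**Figure D2:**
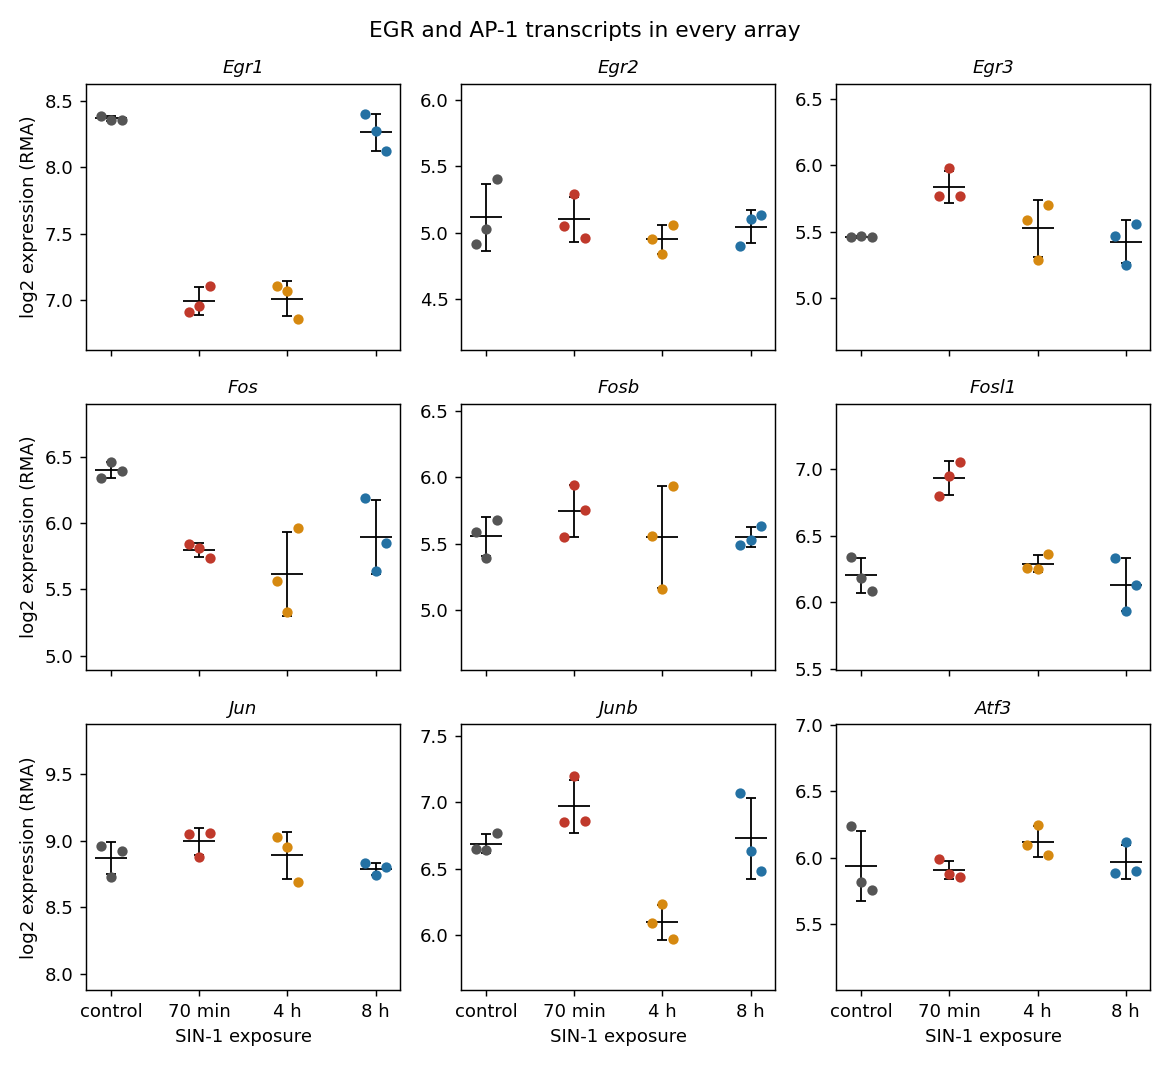
Log2 expression (vertical axis, each panel spanning 2 log2 units) of the 9 measured genes in every array by SIN-1 exposure; points are arrays, bars the mean ± SD of 3. Egr1 sits at 6.86 to 7.11 at 70 min and 4 h and above 8.1 in the controls and at 8 h, Fosl1 stands above its other groups at 70 min, and Junb stands below its other groups at 4 h.

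After 4 h, 3 of the 9 genes were lower than control and 0 were higher, beside 1.77% of all genes called lower and 2.08% called higher. The median over the 9 was 0.00, against 0.01 over all genes. Egr1 and Fos were still down, Junb had fallen, and Fosl1 was back in the range of its controls. At an unadjusted p under 0.05 the count was also 3 of 9, beside 15.1% of all genes.

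Egr1 read 7.11, 7.07 and 6.86 at 4 h, 2.56-fold below control (-1.36 ± 0.09, SE; limma adjusted p = 3.38e-07; -1.28 without the arrays of high median). It was the member farthest from control at this time, as it had been at 70 min. Between 70 min and 4 h it differed by 0.02 (95% interval -0.18 to 0.21; limma adjusted p = 0.937).

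Fos read 5.56, 5.33 and 5.96 at 4 h, a wider spread than at 70 min, with its highest value in replicate 3, an array of high median. No array overlapped the controls (-0.78 ± 0.15, SE, 1.72-fold lower; limma adjusted p = 0.00641; -0.95 without the arrays of high median). Its difference from 70 min, -0.18 (interval -0.50 to 0.14), did not pass. Fos averaged 6.4 in controls and 5.62 at 4 h, the latter below the median of 5.75 over named genes.

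Junb read 6.09, 6.23 and 5.97 at 4 h, below every array of the other 3 groups. Against control it was 1.5-fold lower (-0.59 ± 0.14, SE; limma adjusted p = 0.0237). That call ended in 8 of 24 alternatives, among them each control left out (adjusted p 0.0696, 0.0704 and 0.0993 without replicates 1, 2 and 3), 4 h replicate 1 or 3 left out (0.0691 and 0.0861) and the arrays of high median left out (-0.52, 0.0815). Against 70 min, when it had been on the high side, the drop was larger, at 1.83-fold (-0.87 ± 0.14, SE; limma adjusted p = 0.000612), and that call ended only without the arrays of high median (-0.69, 0.124).

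Fosl1 read 6.26, 6.25 and 6.36 at 4 h, overlapping the controls (0.09, interval -0.15 to 0.34). From 70 min to 4 h it fell 1.56-fold (-0.65 ± 0.12, SE; limma adjusted p = 0.00187; not passing without the arrays of high median, -0.55, 0.171). Atf3 (0.18), Egr3 (0.07), Jun (0.02), Fosb (0.00) and Egr2 (-0.16) did not pass against control at 4 h. Between 70 min and 4 h, 2 of the 9 genes fell and 0 rose, beside 3.15% of all genes lower and 4.48% higher.

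After 8 h no member was called against control, by limma, beside 0.022% of all genes called higher and 0.0055% called lower. Only 5 genes of the whole array passed at this time (4 higher, 1 lower). At an unadjusted p under 0.05 the count was 1 of 9, Fos, beside 5.47% of all genes. The plot of changes from control shows Egr1 back near 0 at 8 h, and Fos alone with an interval that does not reach 0.

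**Figure D3:**
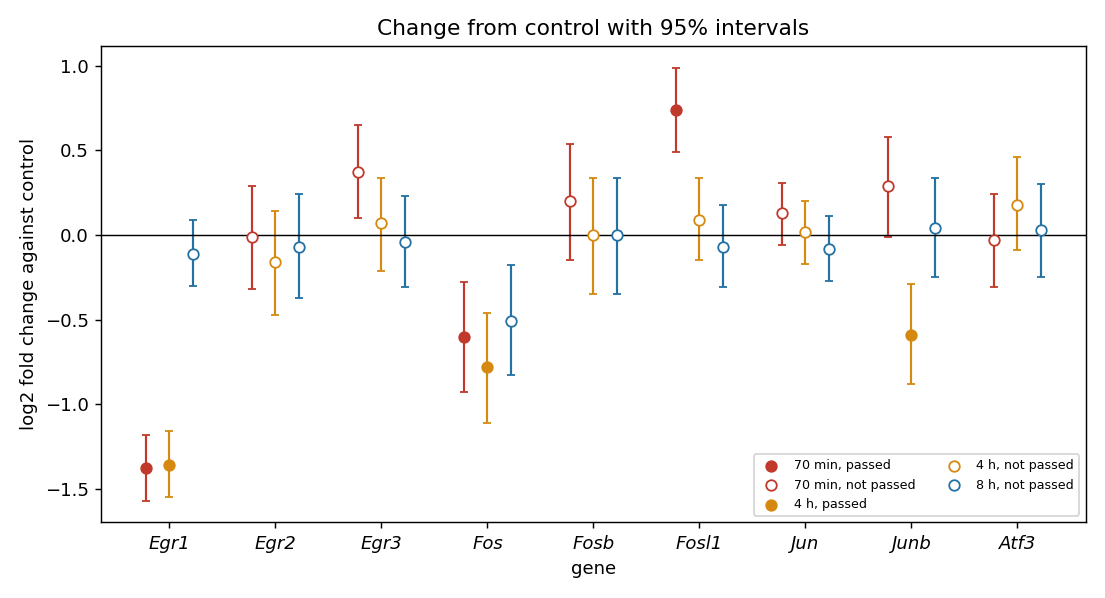
Log2 fold change against the same 3 controls at 70 min (red), 4 h (orange) and 8 h (blue) for the 9 measured genes, with 95% intervals; filled points passed at an adjusted p under 0.05. Egr1 stands at -1.38 and -1.36 before returning to -0.11, and Fosl1 alone passed upward, at 0.74 at 70 min.

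Egr1 read 8.40, 8.27 and 8.12 at 8 h, with replicate 1 above every control. Its difference from control was -0.11 ± 0.09 (SE; interval -0.30 to 0.09; limma adjusted p = 0.963). From 4 h to 8 h it rose 2.38-fold (1.25 ± 0.09, SE; limma adjusted p = 1.21e-06), and from 70 min to 8 h 2.41-fold (1.27; limma adjusted p = 7.79e-08). In order of level Egr1 ran control, 8 h, 4 h, 70 min, where the neighbours control and 8 h, and 4 h and 70 min, did not differ by the test.

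Fos read 6.19, 5.64 and 5.85 at 8 h, all still below the lowest control of 6.34. The difference from control was -0.51 ± 0.15 (SE; interval -0.83 to -0.18; limma adjusted p = 0.654). From 4 h to 8 h it differed by 0.28 (interval -0.05 to 0.60), which did not pass. Unlike that of Egr1, a rise of Fos between these times was thus not shown; the difference between the 2 genes was not tested.

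Junb read 7.07, 6.63 and 6.48 at 8 h, spread around the controls (0.04, interval -0.25 to 0.34). From 4 h to 8 h it rose 1.55-fold (0.63 ± 0.14, SE; limma adjusted p = 0.0162). This call ended in 5 of 24 alternatives, including the arrays of high median left out (0.57, adjusted p = 0.0662), 8 h replicate 1 left out (0.46, adjusted p = 0.0746) and 4 h replicate 3 left out (0.57, 0.0692). In order of level Junb ran 70 min, 8 h, control, 4 h; of the steps between neighbours, only that from control to 4 h passed.

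Fosl1 read 6.33, 5.93 and 6.13 at 8 h, and differed from 70 min by -0.81 ± 0.12 (SE; 1.75-fold lower; limma adjusted p = 0.000115; -0.68 without the arrays of high median, 0.0261). Its order was 70 min, 4 h, control, 8 h, and only the first step passed. Egr3 read 5.47, 5.25 and 5.56 at 8 h, 1.33-fold below 70 min (-0.41 ± 0.13, SE; limma adjusted p = 0.038), a call held in 13 of 23 alternatives. It was lost without the arrays of high median (-0.34, 0.310) and without control replicate 1 or 3, 70 min replicate 2 or 3, or 8 h replicate 1 or 2 (as far as -0.32, adjusted p 0.180). With the array median as covariate it was -0.28 (0.276). For Jun the same difference was -0.21 (interval -0.39 to -0.02), with limma adjusted p = 0.132. With the array median as covariate it passed (-0.34, limma adjusted p = 0.0234). Between 4 h and 8 h, 2 of 9 genes rose and 0 fell, beside 1.97% of all genes higher and 1.54% lower. Between 70 min and 8 h 1 rose and 2 fell, beside 9.56% higher and 6.43% lower.

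Partners of these factors were followed in a list. Of 18 measured among 19 listed AP-1 partners, EGR4 and the NAB co-repressors of EGR proteins, 0 rose and 1 fell at 70 min, 0 rose and 1 fell at 4 h, and 0 were called at 8 h. The shares of all genes called were 6.76% higher and 7.81% lower at 70 min, 2.08% and 1.77% at 4 h, and 0.022% and 0.0055% at 8 h, and the list medians were -0.01, -0.03 and -0.03. Jdp2, which encodes a JUN dimerization partner that represses AP-1, fell by 0.42 at 70 min (7.28 ± 0.04 against 7.71 ± 0.09, SD, n = 3; limma adjusted p = 0.00244). Nab1 fell by 0.31 at 4 h (7.62 ± 0.03 against 7.93 ± 0.04, SD; limma adjusted p = 0.0349), a call that ended without any 1 of the 3 controls (0.0858 to 0.154), any 1 of the 3 arrays at 4 h (0.0631 to 0.116) or 8 h replicate 2 (0.0504). Jund, Egr4 and Nab2, named after their values were seen, stood at -0.10, 0.40 and 0.28 at 70 min and did not pass.

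Upstream of the members, 23 of 28 listed transcription factors and kinases were measured. At 70 min 3 rose and 2 fell (list median 0.07), at 4 h 0 rose and 2 fell (0.00), and at 8 h 0 were called (0.04). These counts stand beside 6.76% of all genes higher and 7.81% lower at 70 min, and 2.08% and 1.77% at 4 h, so the 2 of 23 lower at 70 min lie near the share of all genes. The risers at 70 min were Mef2c, a muscle transcription factor (0.51 ± 0.10, SE; limma adjusted p = 0.00183), Map2k4, a kinase of the JNK and p38 branches (0.38), and Map2k1, the kinase above ERK (0.30). Map2k5, the kinase above ERK5, fell by 0.43, and Rps6ka5, the chromatin kinase MSK1, by 0.39. Rps6ka5 was weakly expressed, at 5.77 in controls and 5.38 at 70 min, near and below the median of 5.75 over named genes. None of these 5 calls held without the 3 arrays of high median, though the direction of each was kept (0.49, 0.45, 0.32, -0.24 and -0.35). The call of Rps6ka5 also ended without control replicate 1, 2 or 3 or 70 min replicate 2 or 3 (adjusted p 0.0554 to 0.130), that of Map2k4 if control replicate 2 or 70 min replicate 3 was dropped (0.0677 and 0.0515), and that of Map2k5 without 70 min replicate 3 (0.0639).

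Srf, which encodes the factor that binds CArG boxes, was 7.82 ± 0.10 in controls and 7.36 ± 0.09 at 4 h (SD, n = 3), a fall of 0.46 (limma adjusted p = 0.00815; 0.0519 without control replicate 2). It stood at 0.19 at 70 min and 0.20 at 8 h and did not pass. Mef2d fell by 0.29 at 4 h (limma adjusted p = 0.035), a call lost with any 1 of the 3 controls dropped (0.0775 to 0.138), or with 4 h replicate 2, 4 h replicate 3 or 8 h replicate 2 dropped (0.0579 to 0.130). Creb1, a CRE-binding factor gene named after its value was seen, stood at -0.61 ± 0.22 (SE) at 70 min and did not pass (limma adjusted p = 0.074).

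Genes known as EGR1 or AP-1 targets were followed through a list of 31, of which 29 were measured. At 70 min 4 were higher and 5 lower, with a list median of 0.03, equal to that of all genes. At 4 h 0 were higher and 7 lower (median -0.07), and at 8 h 0 were called (0.02). Over all genes 6.76% were higher and 7.81% lower at 70 min, 2.08% and 1.77% at 4 h, and 5 genes were called in all at 8 h. Both directions at 70 min and the lower side at 4 h can be read in the plot of the target list.

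The higher targets at 70 min were Ccnd1, the G1 cyclin (9.33 ± 0.07 against 8.62 ± 0.02, SD, n = 3; 1.64-fold; limma adjusted p = 1.26e-06), the EGF receptor ligand gene Areg (0.48), the hyaluronan receptor gene Cd44 (0.47) and Tgfb1 (0.37). The call of Areg ended without any 1 of the 3 controls or without 70 min replicate 2 or 3 (adjusted p 0.0781 to 0.140). Areg levels were low, 4.91 in controls and 5.38 at 70 min, below the median of 5.75 over named genes. Little can thus be read from its rise. At 4 h Ccnd1 stood at 0.14 and Areg at 0.09, neither passing. The course of Ccnd1 was thus like that of Fosl1, with a 70 min level above the other groups.

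The lower targets at 70 min were Gadd45b, a stress sensor gene (-0.73 ± 0.08, SE; limma adjusted p = 1.59e-05), the pseudokinase gene Trib1 and the prostaglandin synthase gene Ptgs2 (-0.62 each), the cytokine gene Il6 (-0.60) and Hbegf, another EGF receptor ligand gene (-0.55; named after its value was seen, to complete the 5). Without the arrays of high median the calls of Il6, Tgfb1 and Areg ended (-0.51, 0.37 and 0.32; adjusted p 0.102, 0.0669 and 0.503).

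At 4 h Trib1 was lower by 1.79-fold (-0.84 ± 0.10, SE; limma adjusted p = 0.000147), Il6 by 1.70-fold, Ccl2, a chemokine gene, by 1.61-fold and Hbegf by 1.51-fold; F3, Lif and Ptgs2, named after their values were seen, made up the 7 at -0.57, -0.45 and -0.39. Gadd45b had returned to -0.04. Il6 averaged 5.75 in controls, 5.15 at 70 min and 4.99 at 4 h, at or below the median of 5.75 over named genes. Lif and Ptgs2 each lost their call when control replicate 1 or 3 or 4 h replicate 1 was dropped (adjusted p 0.0777 to 0.0960 and 0.0704 to 0.223). Lif also lost it without 4 h replicate 2, and Ptgs2 without control replicate 2, 70 min replicate 3, 4 h replicate 3, 8 h replicate 2 or the arrays of high median. The call of Ccl2 ended without any 1 of the 3 controls (adjusted p 0.0676 to 0.0813), when 4 h replicate 2 or 3 was dropped (0.0669 and 0.0704) and when the arrays of high median were (-0.63, 0.0803), and without control replicate 1 or 3 the 7 calls became 4. The listed matrix metalloproteinase genes, classical AP-1 targets named here after their values were seen, did not pass at any time. Mmp14, with a control level of 10.13, stood at 0.15 at 70 min (limma adjusted p = 0.0632), 0.02 at 4 h and 0.05 at 8 h. Mmp3, Mmp9, Mmp10 and Mmp13 had control levels of 3.3 to 5.01, below the median of 5.75, so little can be read from their values of -0.16 to 0.21.

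**Figure D4:**
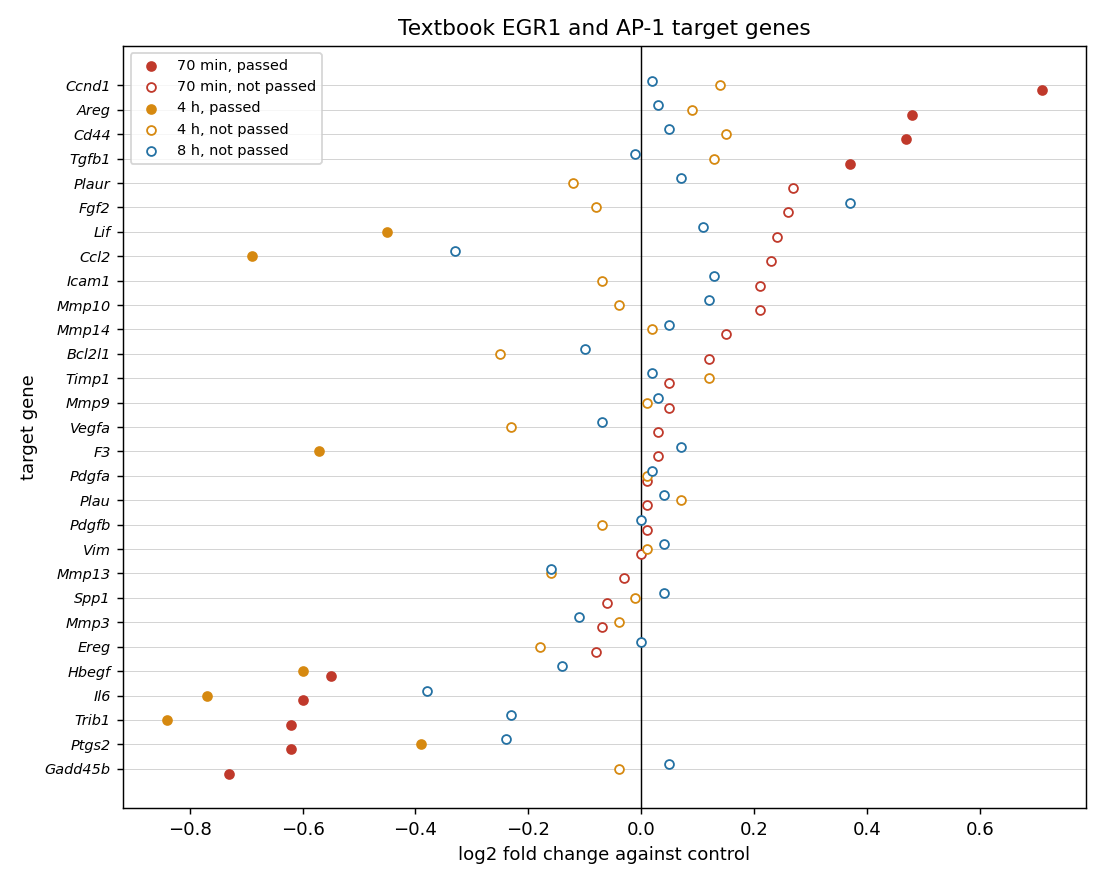
Log2 fold change against control (horizontal axis) of the 29 measured target genes at 70 min (red), 4 h (orange) and 8 h (blue), ordered by the 70 min value; filled points passed at an adjusted p under 0.05. At 70 min 4 genes led by Ccnd1 (0.71) passed upward and 5 down to Gadd45b (-0.73) passed downward; at 4 h the 7 that passed were all lower, and at 8 h none passed.

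Genes whose levels ran most like those of 3 members were ranked by Pearson correlation over the 12 arrays, among 9015 named genes at or above the median level. The arrays share groups and scaling, so the correlations describe likeness and carry no test. For Egr1 the nearest were Ntrk3 (r = 0.978), Tgif1 (0.974), Antxr1 and Flot1 (0.973 each) and Adgrl3 (0.972). Ntrk3, a neurotrophin receptor gene, averaged 6.86 in controls, 6.09 at 70 min, 6.17 at 4 h and 6.81 at 8 h. Adgrl3, an adhesion receptor gene, went from 7.24 to 5.99, 6.11 and 7.33. Like Egr1, both were low at 70 min and 4 h and near control at 8 h.

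For Fosl1 the nearest were Smap2 (r = 0.960), Tuba1c and Ccnd1 (0.959 each), Has2 (0.957) and Lpgat1 (0.956). Has2, a hyaluronan synthase gene, averaged 6.48 in controls, 7.41 at 70 min, 6.48 at 4 h and 6.27 at 8 h, and Tuba1c, a tubulin gene, 10.56, 11.12, 10.62 and 10.45. Each peaked at 70 min. For Fos the likeness was looser, from Insig1 (0.901), a brake on sterol synthesis, and Zfp574 (0.883) to Adamtsl4 (0.859), Stx4 (0.853) and Calhm2 (0.849). Insig1 averaged 7.34 in controls and 6.91, 6.84 and 6.91 at the 3 treated times, without a return at 8 h.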

How the data were processed

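Biotin-labelled RNA from each of the 12 samples was read on its own array. The authors deposited log2 values for 36685 probes, and the submitters' processing notes name RMA and Affymetrix Expression Console, version 1.3.1.187. The log2 scale was inferred from the deposited values (1.19 to 13.63). RMA is meant to equalise distributions between arrays, so differences in total RNA cannot be read. The array medians of the deposited values still ran from 4.98 to 5.12. No filter is named.

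Of the probes 18511 had 1 symbol and 575 several, and 17599 were unlisted. The brightest probe per gene left 18166 genes. limma 3.58.1 in R 4.3.3 (trend prior, 4 groups, 8 residual degrees of freedom) gave 6 two-sided comparisons across all genes, adjusted by Benjamini-Hochberg. The code was tested on simulated data. Members and lists were chosen with earlier results of these data known, and lists were described without a set test.

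Genes named beside the members were, per list and time, up to 4 called genes in each direction with the largest change, and the 5 genes most like Egr1, Fos and Fosl1 (skipping, by symbol prefix, loci without a name, small RNAs, and olfactory or vomeronasal receptors); genes named after their values were seen are marked as such. Alternatives were the replicate block, other priors and weights, other scalings, brighter genes, probe means, all probes, compared groups alone, a 1.5-fold minimum and arrays left out. Promoters are RefSeq's, on GRCr8. Whether triplicates came from separate cultures is not stated. The p-values set each difference against the spread between these samples, and may not carry over to other cultures. The number of arrays limits precision. Figures used matplotlib 3.10.9.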

Additional observations from a re-analysis of the deposited data

Results flagged for a closer look

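The change from control differed between treated times for 4 members, by the limma test of the difference itself. Over all genes, 4.48% were higher and 3.15% lower at 4 h than at 70 min. At 8 h, 1.97% were higher and 1.54% lower than at 4 h, and 9.56% higher and 6.43% lower than at 70 min. From 70 min to 4 h the log2 level of Fosl1 changed by -0.65 and that of Junb by -0.87 (limma adjusted p = 0.00187 and 0.000612). From 4 h to 8 h Egr1 changed by 1.25 and Junb by 0.63 (1.21e-06 and 0.0162). From 70 min to 8 h Egr1 changed by 1.27, Fosl1 by -0.81 and Egr3 by -0.41 (limma adjusted p = 7.79e-08, 0.000115 and 0.038). No test for a deviating array was run within the groups of 3.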

How the results depend on the processing

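Of the 54 member comparisons, 13 passed, and the share of all genes called is given above for each comparison. None of the 13 changed sign in any alternative, and 7 kept their call in every one. With 3 arrays a group, the smallest member change that passed was -0.41. No label says what the replicate numbers mark. Deviations of same-numbered arrays correlated at -0.32 to 0.24, and 6 of 12 arrays were closest to their own number. These values cannot settle whether the arrays were paired. With the replicate block the member calls stayed at 1 higher and 2 lower at 70 min and 0 higher and 3 lower at 4 h. Areg lost its call at 70 min (limma adjusted p = 0.0517) and Ptgs2 its call at 4 h (0.0631), which took the targets lower at 4 h from 7 to 6. A gene outside the brighter set or under the 1.5-fold minimum leaves a count through the filter alone. Egr3 did so, with a mean level of 5.56 and a 1.33-fold fall from 70 min to 8 h. Of the upstream factors lower at 70 min, Rps6ka5 left the count with brighter genes only in this way. It averaged 5.77 in controls and 5.38, 5.7 and 5.61 at 70 min, 4 h and 8 h. The cause of the other changes below was not tested.

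Members higher at 70 min became 2 with array weights or a further quantile normalization (1 to 2 with 1 array left out). Those lower at 70 min became 1 without the 3 arrays of high median (1 to 2 with 1 array left out). Members lower at 4 h than at 70 min became 0 without those 3 arrays. Members higher at 8 h than at 4 h became 1 without the trend prior, with the compared groups alone and without the 3 arrays (1 to 2 with 1 array left out). Members lower at 8 h than at 70 min became 1 with centred arrays, with brighter genes only, with a 1.5-fold minimum, with only the compared groups or without the 3 arrays (1 to 2 with 1 array left out).

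Upstream factors higher at 70 min became 7 after a further quantile normalization, 1 with centred arrays, 5 with brighter genes only or the array median as covariate, and 0 without the 3 arrays. Those lower became 1 with brighter genes only or the covariate and 0 without the 3 arrays (0 to 3 with 1 array left out). At 4 h those lower became 1 without trend, with centred arrays, with compared groups alone and without the 3 arrays (0 to 2 with 1 array left out). Targets higher at 70 min became 2 without the 3 arrays, and targets lower at 4 h ran from 4 to 7 with 1 array left out. Partners higher at 70 min ran from 0 to 1 with 1 array left out. Partners lower at 4 h became 0 without trend, with centred arrays or without the 3 arrays, and 2 with brighter genes only (0 to 1 with 1 array left out).

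Uncalled differences near 0 changed sign in some settings, 17 of 41, none with an adjusted p under 0.600. Without the 3 arrays, Atf3 was 0.05 at 70 min and -0.02 between 70 min and 8 h, Egr3 -0.02 at 4 h and Fosb 0.19 between 4 h and 8 h. With the array median as covariate, Atf3 was 0.03 at 70 min, 0 at 8 h and -0.03 between 70 min and 8 h. The covariate put Egr3 at 0 at 8 h and Egr1 at -0.01 between 70 min and 4 h. It put Fosb at 0.01 at 4 h, 0.08 at 8 h, 0.07 between 4 h and 8 h and 0.05 between 70 min and 8 h. After a further quantile normalization Fosb was 0.02 at 4 h and 0.01 at 8 h, Egr1 -0.03 between 70 min and 4 h and Egr2 0.02 between 70 min and 8 h. With centred arrays Fosb was 0 at 4 h, 0.02 at 8 h and 0.02 between 4 h and 8 h, and Egr2 0.02 between 70 min and 8 h. Array weights gave Junb -0.02 at 8 h and Fosb 0.03 between 4 h and 8 h.

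With 1 array left out, the differences from control ranged at 70 min from -0.11 to 0.13 for Egr2 and -0.12 to 0.12 for Atf3. At 4 h they ranged from -0.02 to 0.18 for Egr3, -0.19 to 0.19 for Fosb and -0.05 to 0.12 for Jun. At 8 h they ranged from -0.17 to 0.08 for Egr2, -0.11 to 0.05 for Egr3, -0.09 to 0.06 for Fosb, -0.17 to 0.03 for Fosl1, -0.13 to 0.17 for Junb and -0.06 to 0.18 for Atf3. Between 70 min and 4 h Egr1 ranged from -0.03 to 0.1, and between 4 h and 8 h Fosb from -0.2 to 0.19. Between 70 min and 8 h the ranges were -0.13 to 0.04 for Egr2, -0.05 to 0.22 for Fos and -0.02 to 0.1 for Atf3.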
